A study of Mus musculus with 2 samples.

Results

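Macrophages bind and take up modified lipoproteins, microbes, dying cells and waste proteins through scavenger and efferocytosis receptors, and 10 such genes were examined by name in RAW264.7 cells given *Flcn* siRNA or scramble siRNA. The genes were *Cd36*, *Msr1*, *Marco*, *Mrc1*, *Cd68*, *Mertk*, *Axl*, *Stab1*, *Cd163* and *Trem2*, out of 18193 genes on the array. They were represented by 18 of the 34945 probe sets that the platform annotation assigns to only 1 gene. RAW264.7 is a macrophage line from mouse whose cells fuse into osteoclasts under RANKL, and *Flcn* encodes folliculin, which keeps the transcription factor Tfe3 out of the nucleus. The cells received an siRNA against *Flcn* or a scramble siRNA, the medium was changed to MEMα with FCS at 24 hours, and RNA was taken after a further 48 hours. Neither the labels nor the description of the arrays names RANKL. Each condition was measured on 1 Affymetrix mouse genome array, from 1 siRNA sequence per condition. No difference below could therefore be set against a spread between replicates, no test was possible, and the precision is limited by the number of arrays.

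Scavenger receptors are a mixed group of surface and endosomal proteins that share an affinity for negatively charged or oxidised ligands rather than a common structure. Class A receptors such as Msr1 and Marco carry a collagen-like stalk, class B receptors such as CD36 cross the membrane at both ends and also take up long-chain fatty acids, and the mannose receptor Mrc1 binds sugar chains ending in mannose. Efferocytosis, the uptake of apoptotic cells, relies on recognition of phosphatidylserine, either directly or through the bridging proteins Gas6 and protein S, which the receptor tyrosine kinases of the TAM family (Tyro3, Axl and Mertk) recognise.

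The values are linear signal intensities in arbitrary units. The median signal was 13.6 with *Flcn* siRNA and 12.8 with scramble siRNA. Lower signals were raised to the array's median before the log2 ratio (*Flcn* siRNA over scramble) was taken, and a ratio with 1 signal under the median is given as at least N-fold. A gene or probe set passed the signal filter when its geometric mean over both arrays was at least 13.2, and was called only by the size of its ratio, higher or lower by at least 1.5-fold. *Flcn* itself had 145.4 with *Flcn* siRNA and 208.6 with scramble siRNA at 1423663_at (log2 ratio -0.52). At 1438167_x_at, which has the highest mean, it had 206.2 with *Flcn* siRNA and 240.9 with scramble siRNA (log2 ratio -0.22). Neither difference reached 1.5-fold on the deposited scale. With each array divided by its median, 1423663_at passed 1.5-fold (log2 ratio -0.61) and 1438167_x_at did not (-0.31). A further probe set, 1456744_x_at, lay under the median on both arrays, at 7.2 with *Flcn* siRNA and 8 with scramble siRNA. *Gpnmb*, a known Tfe3 target, had 2500 with *Flcn* siRNA and 294.3 with scramble siRNA. The 10 macrophage markers, *Csf1r*, *Adgre1* and *Lyz2* among them, passed the filter, their signals summing to 24392.5 with *Flcn* siRNA and 25141.4 with scramble siRNA, and 1 of them, the Fc receptor gene *Fcgr1*, was called lower (log2 ratio -1.44). These markers include *Cd68*, itself 1 of the 10 receptors (3614.5 with *Flcn* siRNA and 3384 with scramble siRNA), and *Cd14*, which is also on an uptake list below. Their sum is therefore not separate from the values below. Of the 10 osteoclast markers 6 passed, their signals summing to 602.7 with *Flcn* siRNA and 439.3 with scramble siRNA, and *Ctsk* (3.40-fold) and *Atp6v0d2* (2.77-fold) were called higher, while *Calcr*, *Oscar*, *Mmp9* and *Itgb3* lay under the median on both arrays. *Acp5*, *Dcstamp*, *Ocstamp* and *Nfatc1* passed without a call. *Nfatc1* had a log2 ratio of 0.099 at the probe set with the highest mean signal, and its 4 probe sets above the filter ran from 0.099 to 0.86. No T cell or B cell marker and 1 of 6 fibroblast markers, *Col1a2* (12.7 with *Flcn* siRNA and 18.3 with scramble siRNA), passed the filter. The part of these shifts in the values below was not tested.

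Of the 10 genes, 5 passed the signal filter (*Cd36*, *Msr1*, *Cd68*, *Stab1* and *Trem2*), and none of these was called higher or lower at the probe set with the highest mean signal. Over all 10285 genes above the filter, 602 or 5.85% were called higher and 568 or 5.52% were called lower, so a count of 0 among 5 genes lies close to what those shares give. After division of each array by its own median, 418 genes were called higher and 807 lower, which makes the higher genes 34.1% of both in place of 51.5%. The median log2 ratio was 0.095 over the 5 receptors and 0.013 over all genes above the filter. Of the 10 receptor probe sets that passed, 9 had a log2 ratio above 0 on the deposited scale and 7 with each array divided by its median. Of these 10 probe sets 3 belong to *Cd36* and 4 to *Msr1*, so they are repeated readings of few genes. By gene, 4 of the 5 receptors had a log2 ratio above 0 on the deposited scale, as had 51.7% of all genes above the filter. With each array divided by its median, *Msr1* fell below 0 (-0.062) and *Cd68* lay at 0.0076. In a bulk culture, a smaller share of cells with a transcript and less of it per cell cannot be told apart.

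**Figure D1:**
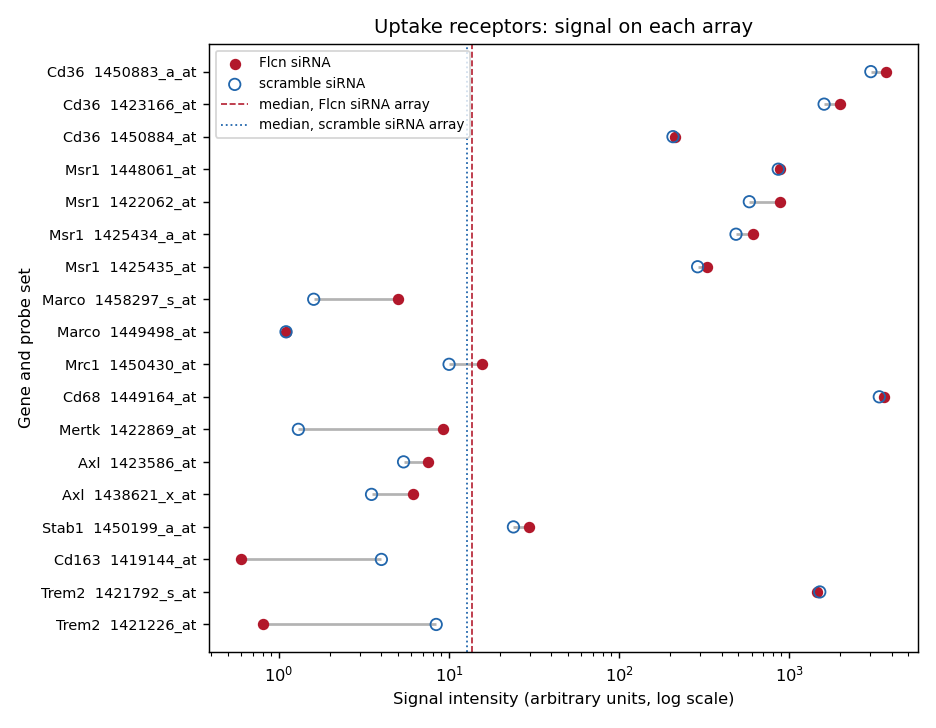
Signal intensity (log scale, arbitrary units) of the 18 probe sets of the uptake receptors with *Flcn* siRNA (filled red) and scramble siRNA (open blue), 1 array each, with the median of each array as a vertical line. The probe sets of *Cd36*, *Msr1*, *Cd68* and *Stab1* and 1 of *Trem2* lie right of both medians, *Mrc1* lies between 10.0 and 15.6, and the others lie under both medians.

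*Cd36*, which encodes the class B receptor for oxidised lipoproteins and fatty acids, was measured by 3 probe sets. At 1450883_a_at the signal was 3716 with *Flcn* siRNA and 3019 with scramble siRNA (1.23-fold, log2 ratio 0.30), and at 1423166_at it was 1980.5 with *Flcn* siRNA and 1603 with scramble siRNA (1.24-fold, log2 ratio 0.30). At 1450884_at it was 211.8 with *Flcn* siRNA and 207.2 with scramble siRNA (log2 ratio 0.032), a ratio that fell below 0 (-0.056) with each array divided by its median. The probe sets with the higher signals thus shared a difference of 1.23- to 1.24-fold, while the one with the lowest signal showed almost none. Of all genes above the filter, 18.0% had a log2 ratio at least as high as that of *Cd36* at 1450883_a_at. The SD of the log2 ratio over the 3 probe sets was 0.16, against a median SD of 0.19 over 5034 genes for which 2 or more probe sets passed. This SD measures technical spread within the arrays and is no replicate error.

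*Msr1*, the class A scavenger receptor for modified lipoproteins and bacterial surfaces, had probe sets that spread wider than those of *Cd36*. The signal at 1448061_at, which has the highest mean, was 877.2 with *Flcn* siRNA and 861.7 with scramble siRNA (log2 ratio 0.026, or -0.062 with each array divided by its median). At 1422062_at it was 887.0 with *Flcn* siRNA and 582.6 with scramble siRNA, a ratio of 1.52-fold, and this was the 1 receptor probe set of 10 to reach 1.5-fold. Over all 18983 probe sets above the filter, 6.54% were called higher and 5.91% lower. The remaining probe sets lay in between, at 609.4 with *Flcn* siRNA and 486.5 with scramble siRNA at 1425434_a_at (1.25-fold) and 329.9 with *Flcn* siRNA and 289.3 with scramble siRNA at 1425435_at (1.14-fold). Each of the 4 had the higher signal on the *Flcn* siRNA array as deposited, their log2 ratios ran between 0.026 and 0.61 with an SD of 0.25, and 1422062_at had a log2 ratio of 0.52 with each array divided by its median, under the size of a call. The gene is transcribed into alternatively spliced forms, and which form each probe set detects was not analysed here. The mean over the probe sets was 0.29, and 5.35% of genes had a log2 ratio at least as high as that of 1422062_at, whereas 48.2% had one at least as high as that of 1448061_at.

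*Cd68*, a heavily glycosylated protein of late endosomes and lysosomes that also binds oxidised lipoproteins, had a signal of 3614.5 with *Flcn* siRNA and 3384 with scramble siRNA at its only probe set, a log2 ratio of 0.095, or 0.0076 with each array divided by its median. *Stab1* encodes stabilin-1, a large receptor for acetylated lipoproteins and phosphatidylserine. Its signal was 29.6 with *Flcn* siRNA and 23.9 with scramble siRNA, a ratio of 1.24-fold (log2 ratio 0.31). Both signals lay close to the array medians, so that this ratio rests on a weak signal, although it is about as large as that of *Cd36*.

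*Trem2*, a lipid-sensing receptor of macrophages, microglia and osteoclasts, was the only receptor above the filter with a log2 ratio below 0. At 1421792_s_at the signal was 1455 with *Flcn* siRNA and 1511.5 with scramble siRNA (log2 ratio -0.055), and 59.5% of genes had a ratio at least as high. The suffix of this probe set marks probes that may match more than 1 transcript. The other probe set, 1421226_at, lay under the median on both arrays, at 0.8 with *Flcn* siRNA and 8.4 with scramble siRNA, and gives no ratio. *Tyrobp*, which encodes the adaptor through which Trem2 signals, had 3905.2 with *Flcn* siRNA and 3811.9 with scramble siRNA (log2 ratio 0.035, or -0.053 with each array divided by its median).

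**Figure D2:**
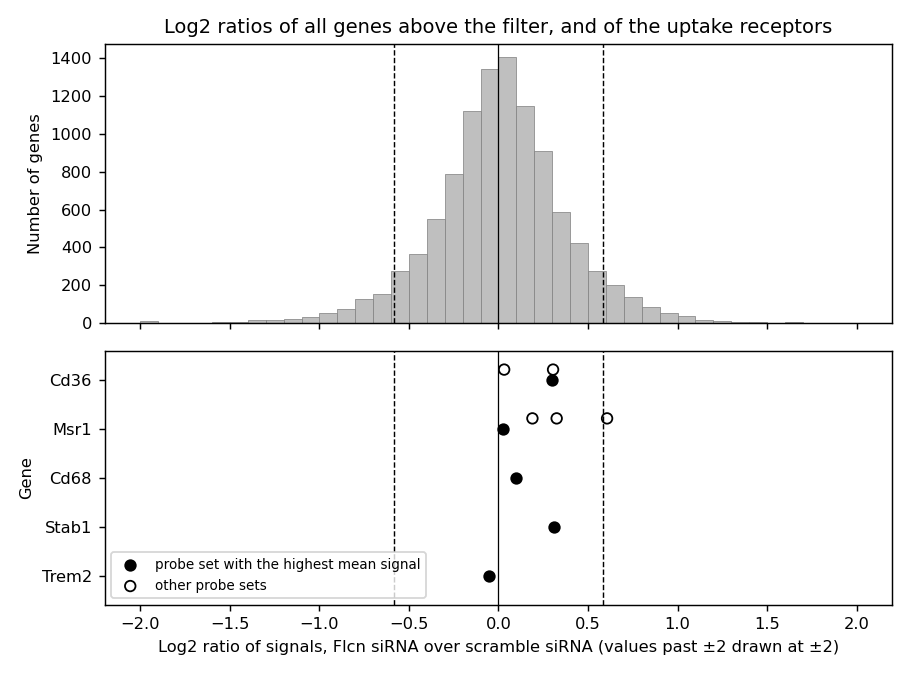
Upper panel, number of genes by log2 ratio (*Flcn* siRNA over scramble) for the 10285 genes above the filter. Lower panel, the 10 probe sets of the 5 uptake receptors above the filter, filled for the probe set with the highest mean signal and open for the others, with dashed lines at 1.5-fold; 1 open point of *Msr1* lies past the right line.

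Both efferocytosis kinases lay under the median on both arrays. *Mertk*, the TAM receptor of resting macrophages, had 9.2 with *Flcn* siRNA and 1.3 with scramble siRNA at 1422869_at. *Axl*, the TAM receptor linked to interferon and inflammation, had 7.5 with *Flcn* siRNA and 5.4 with scramble siRNA at 1423586_at and 6.1 with *Flcn* siRNA and 3.5 with scramble siRNA at 1438621_x_at. The third family member, *Tyro3*, had 3.8 with *Flcn* siRNA and 2.1 with scramble siRNA. For these genes no ratio is given, since without detection calls or replicates the order of signals under the median could not be judged. A low signal does not show that a transcript is absent.

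*Marco*, a class A receptor for bacteria and inhaled particles, had 5.0 with *Flcn* siRNA and 1.6 with scramble siRNA at 1458297_s_at and 1.1 on both at 1449498_at. *Cd163*, the receptor for complexes of haemoglobin and haptoglobin, had 0.6 with *Flcn* siRNA and 4.0 with scramble siRNA. *Mrc1*, the mannose receptor, had 15.6 with *Flcn* siRNA and 10.0 with scramble siRNA, and was thus above the median on the *Flcn* siRNA array only, with a ratio of at least 1.22-fold. Its geometric mean of 12.5 was under the filter, so *Mrc1* was not counted. In all, 7 of the 18 probe sets lay under the median on both arrays, and 4 genes (*Marco*, *Mertk*, *Axl* and *Cd163*) had no probe set above it on either array.

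The promoter windows of 2 receptors are shown because *Cd36* is the receptor with the same difference at its 2 strongest probe sets and *Mrc1* crossed the median on the *Flcn* siRNA array only. Tfe3 and its relatives bind CACGTG and the related letters TCATGTG and TCACATG, and each was searched on both strands in the RefSeq windows of GRCm38.p6, which span 250 bases before to 50 bases after a gene's start. CACGTG reads the same on both strands, and TCATGTG and the reverse complement of TCACATG overlap, so that 1 run can hold both. Windows were at hand for 9 of the 10 receptors, *Msr1* being the other. None of the 9 held CACGTG, which 7.15% of 32851 windows hold, or TCATGTG, which 3.77% hold. TCACATG, which 3.99% hold, was in the windows of *Mrc1*, with its first base 101 bases before the start, and *Marco*, where a match on each strand overlaps inside the transcript. The capitals in *Mrc1* mark that match, read on the other strand, at chr2:14229164-14229463 (plus strand), and *Cd36* holds no match at chr5:17835847-17836146 (minus strand). The window of *Gpnmb*, the known Tfe3 target above, was searched in the same way and held no match. A window without a match can therefore belong to a Tfe3 target. A match is a description of the letters only, and no match says nothing of Tfe3 elsewhere at the gene.
Mrc1: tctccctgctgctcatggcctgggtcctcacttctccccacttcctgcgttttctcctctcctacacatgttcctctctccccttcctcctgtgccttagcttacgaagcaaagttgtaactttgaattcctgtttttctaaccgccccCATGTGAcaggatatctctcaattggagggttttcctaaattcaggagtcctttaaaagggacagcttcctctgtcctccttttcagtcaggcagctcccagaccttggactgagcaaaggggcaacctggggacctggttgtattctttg
Cd36: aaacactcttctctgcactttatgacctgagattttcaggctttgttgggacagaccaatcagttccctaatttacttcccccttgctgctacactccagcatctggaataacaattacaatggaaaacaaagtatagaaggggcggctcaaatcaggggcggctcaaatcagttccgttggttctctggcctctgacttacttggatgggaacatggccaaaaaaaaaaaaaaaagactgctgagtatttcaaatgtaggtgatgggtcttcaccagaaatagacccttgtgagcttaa

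The receptors act with ligands, adaptors and engulfment proteins, and 10 lists of such genes were set beside them, the 10 receptors left out. Of 117 names 107 genes were measured and 72 passed the filter, of which 3 (4.17%) were called higher and 4 (5.56%) lower, against 5.85% and 5.52% of all genes. The shares called thus lie near those of all genes. Their median log2 ratio was -0.026, with 32 genes above and 40 below 0, and 22 above and 50 below 0 with each array divided by its median. Over all genes above the filter the median was 0.013 and 51.7% lay above 0 on the deposited scale. With each array divided by its median, the median was -0.11 for the listed genes and -0.075 for all genes, whose share above 0 was not computed.

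Among bridging molecules 1 of 8 genes was called higher. *Gas6*, the shared ligand of the TAM receptors, had a signal of 40.9 with *Flcn* siRNA and 22.4 with scramble siRNA (1.83-fold). *Pros1*, which encodes protein S, a ligand of Tyro3 and Mertk, had 131.5 with *Flcn* siRNA and 116.1 with scramble siRNA (log2 ratio 0.18), and *Mfge8*, which links phosphatidylserine to integrins, had 337.2 with *Flcn* siRNA and 330.8 with scramble siRNA (log2 ratio 0.028, or -0.060 with each array divided by its median). *Gas6* was measured by 1 probe set above the filter, and its scramble siRNA signal was weak. Its receptors *Mertk* and *Axl* were those under the median on both arrays. Of the phosphatidylserine receptors and their integrins, 1 of 7 was called lower. *Itgb5*, the beta 5 integrin chain that pairs with alpha v, had 179.7 with *Flcn* siRNA and 461.7 with scramble siRNA (log2 ratio -1.36), and its 4 probe sets above the filter had log2 ratios between -1.36 and -0.95.

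Relatives of the scavenger receptors that passed the filter stayed under 1.5-fold on the deposited scale, and 1 of them, *Cd5l*, passed it with each array divided by its median. *Scarb1*, the class B receptor for high-density lipoprotein, had 296.3 with *Flcn* siRNA and 251.5 with scramble siRNA (log2 ratio 0.24, with 0.21 to 0.41 over 3 probe sets). *Scarb2*, a lysosomal membrane protein of the same class, had 481.1 with *Flcn* siRNA and 483.5 with scramble siRNA (log2 ratio -0.0072, with -0.42 at its other probe set). *Cd5l*, a secreted macrophage protein with scavenger receptor domains, had 20.7 with *Flcn* siRNA and 30.0 with scramble siRNA (log2 ratio -0.54, or -0.62 with each array divided by its median), a weak signal on both arrays. *Stab2*, the relative of *Stab1* on liver endothelium, had 11.1 with *Flcn* siRNA and 3.0 with scramble siRNA, under both medians. Of 12 other scavenger receptor names 11 were measured and 4 passed, with a median log2 ratio of 0.074 on the deposited scale and -0.014 with each array divided by its median.

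The mannose receptor family and C-type lectins held 3 of the 7 calls, with 8 genes above the filter and a median log2 ratio of 0.070, or -0.017 with each array divided by its median. *Clec4a3*, which encodes a C-type lectin receptor of the DCIR family, had 245.9 with *Flcn* siRNA and 703.7 with scramble siRNA (log2 ratio -1.52). *Clec10a*, which encodes a lectin for galactose and N-acetylgalactosamine, had 136.4 with *Flcn* siRNA and 266.3 with scramble siRNA (log2 ratio -0.97). *Clec4n*, which encodes dectin-2, a receptor for fungal mannans, had 46.3 with *Flcn* siRNA and 28.6 with scramble siRNA (1.62-fold), and its 2 probe sets gave log2 ratios of 0.56 and 0.70. *Clec4a3* and *Clec10a* were measured by 1 probe set above the filter each, so nothing on the array repeats their values. *Clec4a2* passed without a call (log2 ratio 0.26), but the other of its 2 probe sets above the filter had -0.60, past 1.5-fold. *Mrc2*, another member of the mannose receptor family, had 3.6 with *Flcn* siRNA and 1.0 with scramble siRNA, under both medians.

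In the Trem list, *Trem3* encodes an activating receptor of mouse macrophages that shares the adaptor Tyrobp with Trem2. Its signal was 102.1 with *Flcn* siRNA and 228.7 with scramble siRNA (log2 ratio -1.16), at 1 probe set above the filter. *Trem3* was the 1 of 9 genes called at the probe set with the highest mean signal. The 3 probe sets of the kinase gene *Syk* above the filter had log2 ratios between 0.067 and 0.65, the highest of them past 1.5-fold. *Trem1*, which amplifies inflammatory signalling, had 13.4 with *Flcn* siRNA and 12.8 with scramble siRNA, at or under the median of each array. The median of the list was a log2 ratio of -0.024, with 3 genes above and 6 below 0. No gene of the engulfment machinery was called at the probe set with the highest mean signal, with 15 genes above the filter and a median log2 ratio of -0.057. The 3 probe sets of *Dock2* above the filter had log2 ratios between -0.81 and -0.47, the lowest of them past 1.5-fold. Of 13 genes that handle sterols and lipids after uptake, 1 was called, *Fabp5*, a fatty acid binding protein, which had 1628.7 with *Flcn* siRNA and 707.2 with scramble siRNA (2.30-fold), and its 2 probe sets gave log2 ratios of 0.85 and 1.20. The list built around signals that hold back uptake had 4 genes above the filter (*Sirpa*, *Cd47*, *Pilra* and *Pilrb1*). Their median log2 ratio was -0.31, and none was called at the probe set with the highest mean signal. The 3 probe sets of *Cd47* above the filter had log2 ratios between -0.76 and -0.30, the lowest of them past 1.5-fold.

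**Figure D3:**
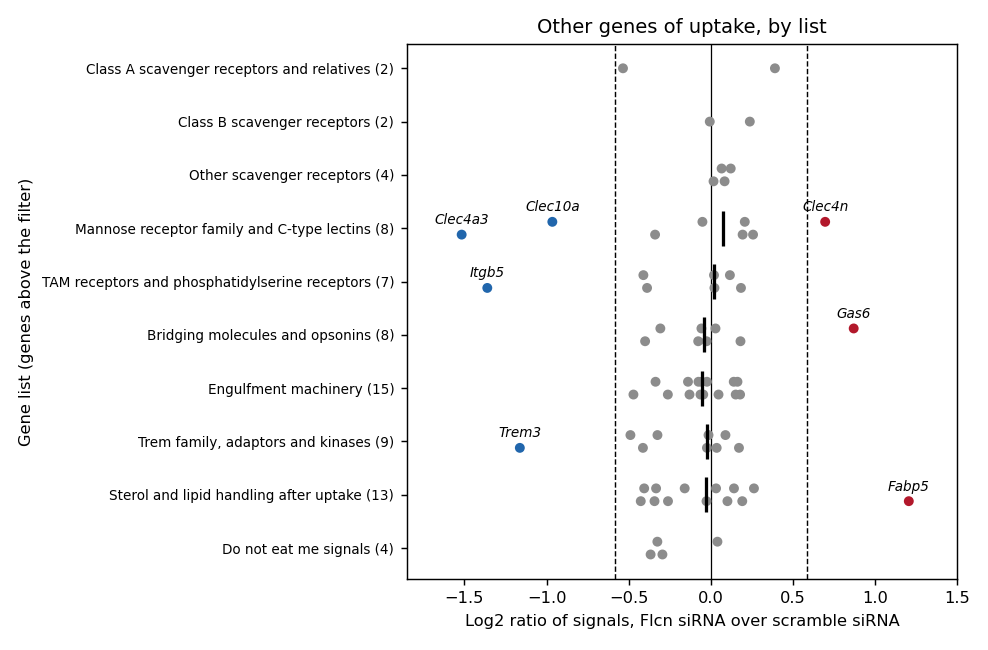
Each point is the log2 ratio (*Flcn* siRNA over scramble) of 1 gene above the filter in 10 lists of uptake genes, with the number of genes in parentheses, from 1 array per condition. Black bars are medians of lists with at least 5 genes, dashed lines mark 1.5-fold, and the 3 genes called higher (red) and 4 called lower (blue) are named.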

How the data were processed

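RNA from RAW264.7 cells that had received *Flcn* or scramble siRNA was hybridised to Affymetrix mouse genome arrays, 1 per condition. GCOS 1.0 was used by the authors, whose deposited values are linear intensities, 1 for each probe set on each array. The deposited table held no detection calls, and its mean without the outer 2% of 45101 probe sets was 100.0 on both arrays. The scaling target and other settings of GCOS were not given in the sources used. Of the probe sets, 64 controls and, among the others, 932 with several genes and 9160 without an annotation entry were left out. Symbols came from the annotation and, for 34741 of 34945 probe sets, through the Entrez ID from the RefSeq table of GRCm38.p6. The probe set whose geometric mean over both arrays was highest stood for its gene. No p-value was computed, since each condition had 1 array.

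The members and lists were chosen with earlier results of these data known. The named genes are the receptors, their listed relatives, ligands and adaptors, the list genes called at 1.5-fold, *Flcn*, *Gpnmb* and cell type markers. Some listed genes are not analysed here. Functions were tested on simulated data. Tables were made with pandas 2.3.3 and numpy 2.4.6, and figures with matplotlib 3.10.9, under Python 3.11.15 with scipy 1.17.1. The 9 alternatives changed the scaling, the probe sets, the floor or the filter.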

Additional observations from a re-analysis of the deposited data

How the results depend on the processing

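Under the 9 alternatives none of the receptors above the signal filter was called higher or lower. Of 42 receptor ratios under these settings 1 moved by more than 0.19, the median SD among probe sets of a gene, that of *Msr1*, which was 0.29 with the mean of all its probe sets and ran between -0.062 and 0.29 over the settings. *Cd36* ran between 0.21 and 0.30, *Cd68* between 0.0076 and 0.11, *Stab1* between 0.22 and 0.31 and *Trem2* between -0.14 and -0.048. When the probe sets had to be unique to 1 transcript, *Stab1* and *Trem2* gave no value, since their remaining probe sets were absent or under the filter, and *Stab1* gave none with the filter at the 75th percentile. That filter, which tests fewer genes, lowered the calls over all genes to 213 higher and 268 lower of 6812 and left 1 gene of the uptake lists called higher. The number of uptake genes called higher was otherwise 2 or 3, and the number called lower was 4 to 6. With 1 array per condition no array could be left out and no paired analysis was possible because each group has 1 sample. Signals near or under the array median limit what can be said of *Stab1*, *Mrc1*, *Marco*, *Mertk*, *Axl* and *Cd163*.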
